A study of Rattus norvegicus with 47 samples.

Results

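Gene expression in the medial prefrontal cortex was compared between adult Wistar rats that had been reared in isolation (Iso) and rats that had been reared socially (Soc), all taken at postnatal day 80 (P80). The comparison rests on the 12 of 47 arrays whose titles name these groups, 6 arrays of Iso P80 and 6 of Soc P80, and every difference below is Iso minus Soc. The other arrays hold the same rearing conditions at P30, P40 and P60. They shared the estimate of the spread and allowed a test of whether the difference at P80 departed from that at the younger ages. Wistar is an outbred strain, the groups of an age differed by housing alone as far as the labels say, and the cortex was dissected and frozen without delay after the animals were killed. The labels give neither the sex of the rats, the age at which isolation began nor whether an array holds RNA of 1 animal. The p-values therefore measure the spread between these arrays, which may be technical.

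The medial prefrontal cortex takes part in executive control and social behaviour, and rearing rodents without cage mates is an established way to alter both. Several groups of genes report on the state of such tissue. Interferons act on cells through receptors and Janus kinases, which activate a transcription factor complex that contains Irf9 and switches on antiviral genes with a common promoter element. Immediate early genes such as Fos and Arc rise within minutes of neuronal firing, so their level in rapidly frozen cortex reflects recent activity. Myelin genes are made by mature oligodendrocytes, and the prefrontal cortex is among the last regions to myelinate.

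RNA was measured with 1-colour arrays on which a probe set reports on a transcript, and values are log2 signals, so a difference of 1 is a change of 2-fold. A probe set or gene is called here where limma, a linear model with variances moderated across all probe sets, gave an adjusted p (Benjamini-Hochberg) under 0.05. A gene is represented by its probe set of highest mean signal, a choice that does not use the difference. Values after ± are standard deviations over 6 arrays unless they are named as standard errors (SE).

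A large part of the measured transcriptome differed between the rearing groups at P80, by small amounts and in both directions. Of 12149 probe sets tested, 5796 were called (47.7%), 2852 higher in Iso (23.5%) and 2944 lower (24.2%). With each array centred on its median, 3277 were higher and 2458 lower. The median size of a called difference was 0.291. Only 247 called probe sets were higher by more than 0.5 and 409 lower, and only 9 and 19 differed by more than 1. In 3027 probe sets (24.9%) the 6 Iso and 6 Soc arrays did not overlap. At the level of genes, 3912 of 7898 were called (49.5%), 24.4% higher and 25.1% lower, with a median difference of -0.00211 over all genes, and these shares are the background for every count below. In 26.4% of genes the arrays of the groups did not overlap (13.1% higher and 13.3% lower in Iso). Among 382 genes with at least 2 called probe sets, 151 (39.5%) had calls in opposite directions, so a call refers to the probe set and not to every transcript of its gene.

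Measures of RNA and array quality moved with the groups. The ratio of 3' to middle signal of the poly-A control probe sets (transcripts of Bacillus genes used as spike-ins, mean of 4) was 3.78 ± 0.11 in Soc P80 and 5.42 ± 0.41 in Iso P80, without overlap (exact permutation p = 0.00216, the smallest that 6 against 6 arrays allow; adjusted p = 0.00519 over 12 measures). Of the 4 controls LysX, PheX and ThrX had the higher ratio in Iso, while TrpnX had the lower (3.69 against 4.19, exact permutation p = 0.0195). The ratio of 3' to 5' signal of Gapdh went the other way (1.57 ± 0.091 in Iso and 1.89 ± 0.091 in Soc, exact permutation p = 0.00216), and that of hexokinase was higher in Iso (3.32 against 2.44, exact permutation p = 0.00866). Across all groups the poly-A ratio was also high in Soc P60 (4.89) and low in Iso P60 (3.22), whereas P40 had the order of P80 (4.71 in Iso and 3.84 in Soc). By the root mean square of log2 values the mean of Iso P80 lay nearer to that of Soc P60 (0.167) than to that of Soc P80 (0.263). Each P80 array was closest to an array of its own group, as it would also be if whole groups had been renamed. The labels give no batch, so a batch that follows the groups, or an exchange of group labels, cannot be told apart from rearing, and every difference here is between arrays as labelled. With the poly-A ratio as a covariate, chosen after the data were seen, 2227 probe sets were called at P80 (18.3%), of which 2161 had been called in the same direction without it and 0 in the opposite one. At the level of genes the covariate left 1508 calls (19.1%), 9.09% of genes higher and 10% lower. With it 262 called probe sets were higher by more than 0.5 and 457 lower (247 and 409 without it). The ratio did not overlap between the groups, so a call lost with it need not mean a smaller difference. In the first set of hybridisation spike-ins, though not in the second, array 4 of Iso P80 stood apart. Without that array 5564 probe sets were called. Markers of cortical neurons were present in both groups, with Snap25 at 11.75 ± 0.16 in Soc P80 and 11.98 ± 0.18 in Iso P80.

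**Figure D1:**
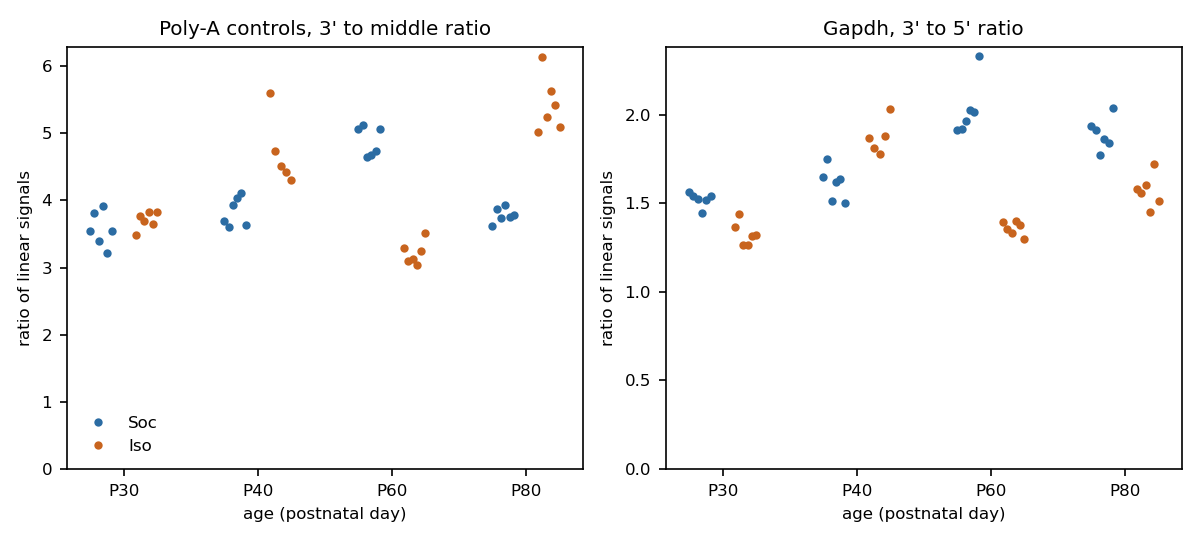
Ratio of 3' to middle signal of the poly-A controls (left) and ratio of 3' to 5' signal of Gapdh (right), both as ratios of linear signals, against age, with 1 point per array for Soc (blue) and Iso (orange). At P80 the poly-A ratio was 3.61 to 3.93 in Soc and 5.02 to 6.13 in Iso, and at P60 the order of the groups was the opposite.

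Genes induced by interferon were higher in isolated rats, and they gave the largest rises of the comparison. Of 43 listed genes 32 had a probe set in the table and 15 passed the filter on low signals. Of these 15, 12 were higher (80.0%, against 24.4% of all genes), 0 were lower, and the median difference was 0.62. The filter used the mean over all arrays, Iso P80 among them, and 17 of the 32 genes lay below it. A gene that was low in Soc P80 could thus pass through Iso P80 itself or another group where it was high. The share of 80.0% is therefore a description of the members that passed and not a test. All 15 measured members are given here. Leaving out any 1 array kept 11 or 12 of them, the poly-A covariate kept 10 and the Gapdh ratio as a covariate kept 10.

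Isg15, a ubiquitin-like protein that is attached to other proteins during antiviral responses, lay between 3.603 and 5.30 in Soc P80 (median 4.42) and between 6.195 and 6.44 in Iso P80 (median 6.26). The groups did not overlap, and the fitted difference was 1.84 ± 0.17 (SE), with an adjusted p of 1.95e-12 in limma. All 6 Soc values lay below the filter level of 5.72, where no detection call was used here, so the size of this difference is uncertain and no fold is given. The Soc P80 means of Irf7, Irf9, Lgals3bp, Rsad2, Ifit2, Ifitm3 and Eif2ak2 also lay below that level, and the same limit holds for their sizes. Irf7, the master transcription factor of the interferon response, lay between 5.33 and 5.65 in Soc P80 (median 5.42) and between 6.72 and 7.15 in Iso P80 (median 6.89). Its difference of 1.47 ± 0.082 (SE) had an adjusted p of 2.36e-19. Irf9, the DNA-binding subunit of the complex that carries the interferon signal to promoters, rose from 5.52 ± 0.17 to 6.64 ± 0.074, by 1.12 (adjusted p = 1.41e-12). Every Iso array exceeded every Soc array for these transcription factors. Stat2, the partner of Irf9 in that complex, was at 6.18 to 6.70 in Iso and 6.08 to 6.50 in Soc and was not called (0.16, adjusted p = 0.195).

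The effectors followed the same order. Lgals3bp, a secreted glycoprotein that binds galectins, was at 5.03 ± 0.37 in Soc P80 and 6.12 ± 0.18 in Iso P80, a rise of 1.09. Rsad2 (viperin), an antiviral enzyme of the endoplasmic reticulum, rose from 5.25 ± 0.28 to 6.19 ± 0.17, by 0.94. Its neighbour in function Cmpk2, a mitochondrial nucleotide kinase, rose by 0.51 (adjusted p = 5.73e-10), while its other probe set was not called (-0.26, adjusted p = 0.193). Neither overlapped between the groups in the probe sets of highest signal. Ifit2, which binds foreign RNA, rose by 0.70, and the membrane proteins that restrict virus entry or release rose by 0.64 (Ifitm3), 0.48 (Bst2) and 0.25 (Ifitm2, adjusted p = 0.036, groups overlapping). Ifi27, a small membrane protein, lay at 9.92 to 10.09 in Soc P80 and 10.40 to 10.58 in Iso P80 without overlap (difference 0.50, adjusted p = 4.34e-16). Eif2ak2, the kinase PKR that halts translation on sensing viral RNA, differed by 0.62 (adjusted p = 0.00226), but its arrays overlapped, at 4.71 to 6.10 in Soc and 5.75 to 6.55 in Iso. Parp14 (0.11, adjusted p = 0.528) and Irgm (0.01, adjusted p = 0.952) were not called. With the poly-A ratio as a covariate, Eif2ak2 (adjusted p = 0.552) and Ifitm2 (adjusted p = 0.957) were no longer called.

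**Figure D2:**
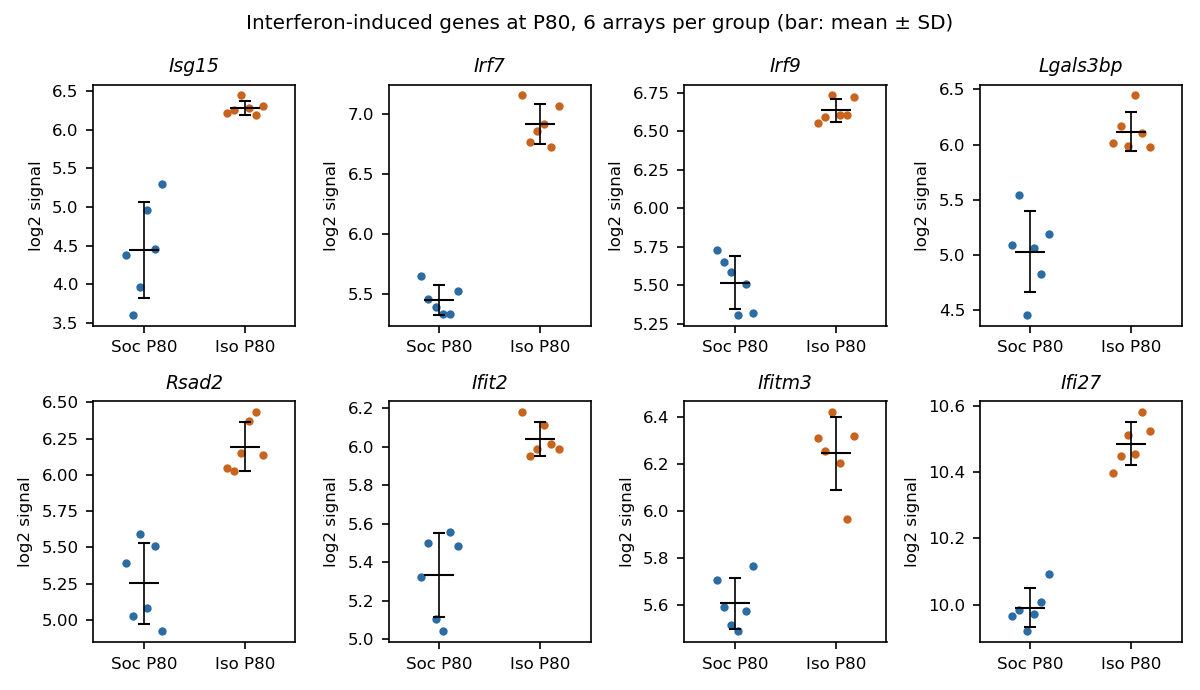
Log2 signal of 8 interferon-induced genes on each of the 6 Soc P80 (blue) and 6 Iso P80 (orange) arrays, with the mean and standard deviation as bars and a separate axis per gene. In all 8 panels the lowest Iso array lies above the highest Soc array.

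Promoter sequences are shown because most of the risen genes with a promoter entry hold a known element, as some members that did not rise do too. RefSeq promoters of the build GRCr8, from 250 bases before to 50 after each gene's start, were searched on both strands, with overlapping matches allowed, for TTTC followed after any 2 bases by TTTC (on the other strand GAAA, any 2 bases, GAAA). This is a core of the interferon-stimulated response element. It stands in 3.92% of all 33469 promoters and in 2.75% of the 6621 measured genes with a promoter. Of the 12 interferon-induced genes that rose, 10 had a promoter entry and 8 of these held the motif, and of the 3 members that were not called 2 held it. Among class I genes, described next, 3 of the 5 that rose held it, as did 1 of 5 others with a promoter entry, Psmb10, which fell. A match is a description of these letters and not of a bound site. The windows of 60 bases below run 5' to 3' on the strand of the gene, with the match in capitals. They lie at chr1:205800058-205800117 (minus strand, Irf7), chr6:48788233-48788292 (minus, Rsad2), chr6:128355203-128355262 (plus, Ifi27), chr16:18255058-18255117 (minus, Bst2), chr10:104127864-104127923 (minus, Lgals3bp), chr1:205541768-205541827 (minus, Ifitm3), chr3:129549155-129549214 (plus, B2m) and chr15:33052770-33052829 (minus, Psme2). The matches begin 69 (Irf7), 147 (Rsad2), 84 (Ifi27), 125 (Bst2), 50 (Lgals3bp), 44 (Ifitm3), 150 (B2m) and 53 (Psme2) bases before the start.
Irf7: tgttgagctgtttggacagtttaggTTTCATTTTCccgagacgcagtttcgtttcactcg
Rsad2: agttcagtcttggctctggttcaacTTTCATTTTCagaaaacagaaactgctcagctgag
Ifi27: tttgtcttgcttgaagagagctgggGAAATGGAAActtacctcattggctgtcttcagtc
Bst2: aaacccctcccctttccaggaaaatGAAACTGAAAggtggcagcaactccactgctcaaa
Lgals3bp: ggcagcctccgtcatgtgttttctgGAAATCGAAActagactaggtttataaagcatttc
Ifitm3: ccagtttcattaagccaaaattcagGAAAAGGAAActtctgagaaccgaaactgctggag
B2m: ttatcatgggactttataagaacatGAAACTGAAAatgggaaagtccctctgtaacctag
Psme2: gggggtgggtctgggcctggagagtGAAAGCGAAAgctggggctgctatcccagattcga

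Class I antigen presentation, by which cells display peptides on major histocompatibility molecules, changed at its heavy and light chains. Of 24 listed genes 12 were measured, 5 higher (41.7%) and 2 lower (16.7%), with a median of 0.087, and the 7 called members are given here. B2m, the invariant light chain, lay between 10.07 and 10.27 in Soc P80 and between 10.54 and 10.68 in Iso P80. This rise of 0.47 ± 0.038 (SE) had an adjusted p of 4.31e-14, and the other B2m probe set rose by 0.45. The rat class I heavy chain genes RT1-T24-3 (0.78) and RT1-S3 (0.55) also rose without overlap of the groups, although probes to such near-identical genes may share transcripts. Psme2, a subunit of the proteasome activator induced by interferon, rose by 0.52 (adjusted p = 3.03e-06), and the chaperone Canx by 0.10, while another of its probe sets fell by 0.49. In contrast Psmb10, a catalytic subunit of the immunoproteasome, fell by 0.39 (from 6.90 ± 0.085 in Soc to 6.51 ± 0.091 in Iso), and the chaperone Calr fell by 0.13. With the poly-A covariate B2m, RT1-T24-3 and RT1-S3 stayed called and Psme2 (adjusted p = 0.279) and Psmb10 (adjusted p = 0.854) did not.

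Upstream of these genes, receptors, kinases and sensors of the interferon system did not move together. Of 23 listed genes 11 were measured, 2 were higher and 2 lower (18.2% each), and the median was -0.20. Leaving out 1 array gave 2 to 5 calls in all, with 2 without array 4 of Iso P80 and 4 lower members without its array 6. Ifngr2, a chain of the interferon gamma receptor, rose by 0.33 and Il6st, a shared cytokine receptor chain, by 0.13. Jak1, the kinase that both interferon receptor types use, fell by 0.23 (adjusted p = 5.02e-06), and Mavs, an adaptor of RNA sensing, fell by 0.32 with an adjusted p of 0.0459. With the poly-A covariate 0 of the 11 were called in limma, and the calls of Mavs and Il6st were also lost with the Gapdh ratio as a covariate.

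The rise at P80 was larger than the differences at P30 and P60. At P40 the order of the groups was the opposite and the difference was larger in size than at P80. The mean of the 15 interferon-induced genes lay between 5.84 and 6.03 on the Soc P80 arrays and between 6.55 and 6.69 on the Iso P80 arrays. Soc P40 was the highest group (7.20 to 7.36), and the other groups lay between 6.06 and 6.35. At P60 the Iso arrays (6.19 to 6.32) also lay above the Soc arrays (6.06 to 6.13), by less than at P80. The median difference of the 15 members was 0.62 at P80, 0.13 at P60, -1.04 at P40 and -0.03 at P30. Thus Soc P80 was the lowest and Iso P80 the next to highest of the 8 groups, an order that Isg15, Irf7, Irf9, Lgals3bp and Rsad2 each showed. At P40 the difference was -2.44 for Irf7, -2.12 for Isg15 and -1.33 for Ifi27. The P80 difference was tested against the mean of the differences at P30, P40 and P60, a contrast in which no array enters both sides and whose other side is lowered by P40. It was above that mean in 11 of the 15 members, against 23.7% of all genes, with a gap of 2.44 for Irf7 (adjusted p = 1.14e-24) and 0.91 for Ifi27 (adjusted p = 9.61e-23). The filter used the mean over all arrays, so a member could pass it through Soc P40 or Iso P80. High values in either group raise this contrast, so the count of 11 is a description and not a test. At P60 the difference of Irf7 was 0.15 (adjusted p = 0.11) and that of Isg15 -0.06 (adjusted p = 0.78), while Ifi27 was higher by 0.35 at P60 as well.

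**Figure D3:**
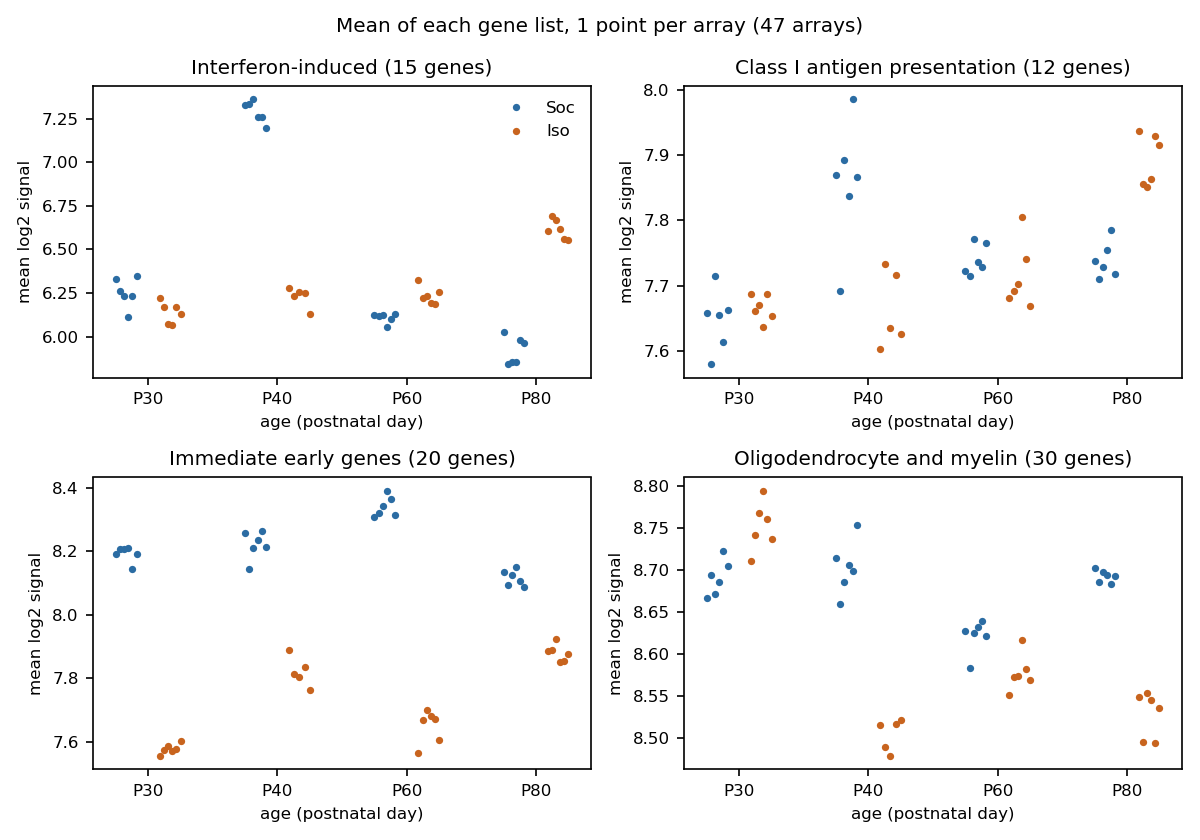
Mean log2 signal over the measured genes of 4 lists against age, with 1 point per array for Soc (blue) and Iso (orange) and a separate axis per list. At P80 the Iso arrays lie above the Soc arrays for interferon-induced genes (6.55 to 6.69 against 5.84 to 6.03) and class I genes (7.85 to 7.94 against 7.71 to 7.79) and below them for immediate early genes (7.85 to 7.92 against 8.09 to 8.15) and myelin genes (8.49 to 8.55 against 8.68 to 8.70).

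Activity-induced genes were lower in isolated rats. Of 36 listed immediate early genes 20 were measured, 10 were lower (against 25.1% of all genes) and 1 was higher, and the median was -0.20. The 11 called members are given here. Fos, a subunit of the transcription factor AP-1, lay between 7.97 and 8.45 in Soc P80 and between 7.11 and 7.33 in Iso P80, without overlap, and fell by 0.99 (adjusted p = 1.85e-12). Arc, which regulates AMPA receptor removal at synapses, lay between 8.26 and 8.35 in Soc and between 7.90 and 7.97 in Iso, and fell by 0.37 (adjusted p = 4.69e-11). The zinc finger factors Egr1 and Egr2 fell by 0.24 and 0.50. Also lower were Junb (fell by 0.71, arrays overlapping), Ptgs2, the inducible cyclooxygenase (fell by 0.52), the phosphatase Dusp6 (fell by 0.42), the kinase Plk2 (fell by 0.31), Jund (fell by 0.11) and the orphan receptor Nr4a1 (fell by 0.09, adjusted p = 0.0452). Klf10 was the member that rose, by 0.28. With the poly-A covariate 7 remained lower and 1 higher.

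The fall at P80 was smaller than at the younger ages for several of these genes. The difference of Arc was -1.48 at P30, -1.05 at P40 and -1.48 at P60, and its P80 value stood 0.97 above their mean (adjusted p = 2.16e-22). Egr2 differed by -1.55, -1.30 and -1.84 at those ages, and its P80 value stood 1.06 above their mean. Fos stood 0.68 above and Nr4a1 0.72 above. In all, 11 of the 20 members lay above the mean of the younger ages and 2 below, against 23.7% and 23.6% of all genes. For Arc, Soc P80 was itself lower (8.31) than the other social groups (9.05 to 9.30), while Iso P80 (7.95) lay within the range of the other isolated groups (7.58 to 8.26). Plk2 was an exception, since its fall at P80 went 0.23 beyond the mean of the other ages.

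**Figure D4:**
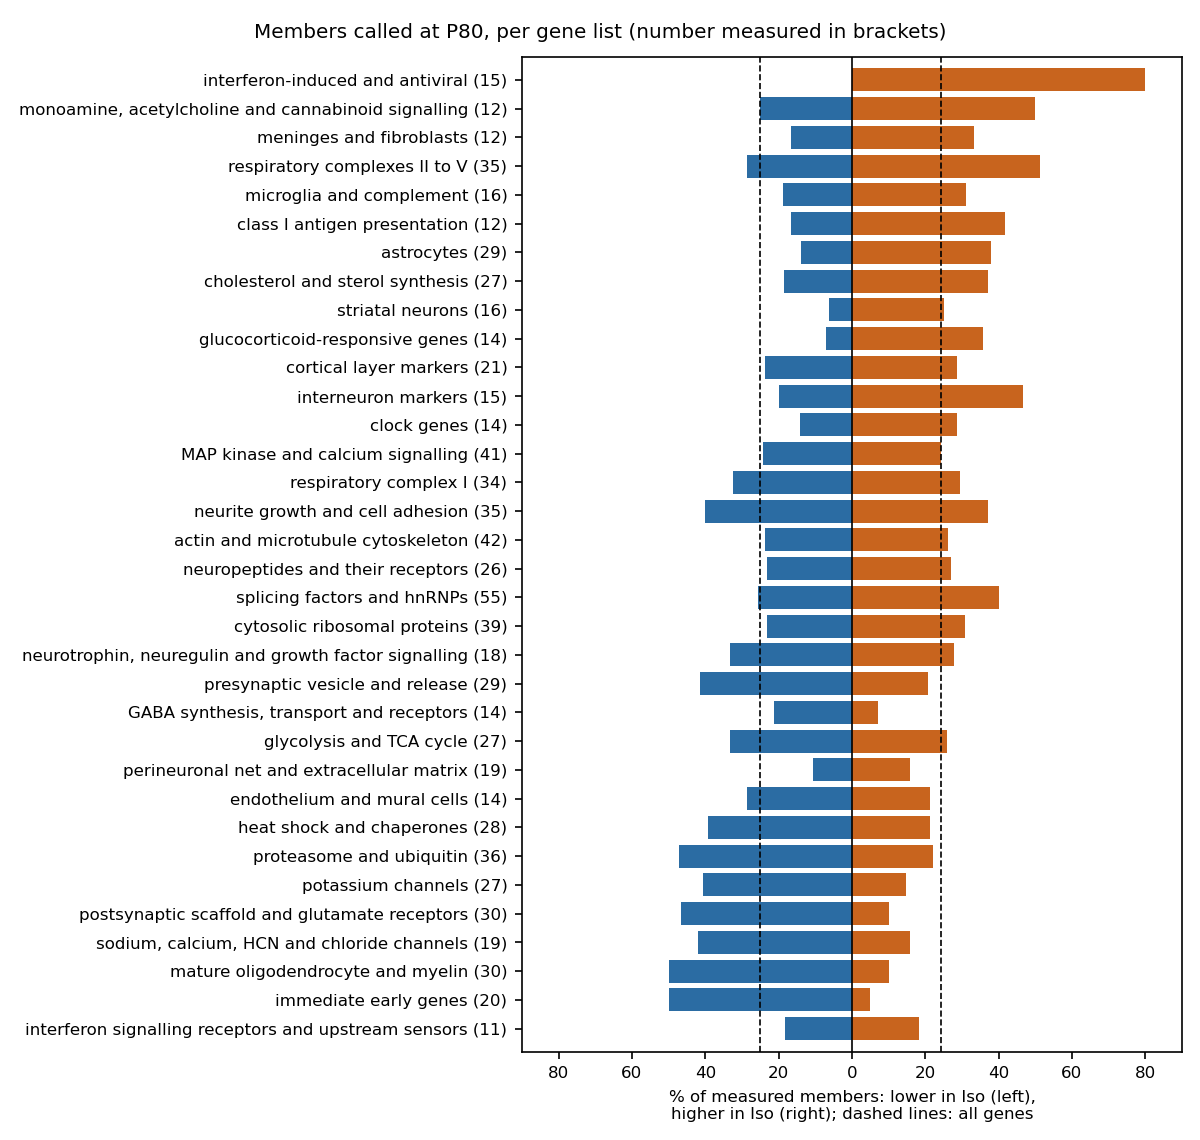
Share of the measured members of each list that was called lower (blue, left) or higher (orange, right) in Iso P80, in percent, for lists of at least 10 measured genes ordered by median difference. The dashed lines give the shares over all genes, 25.1% lower and 24.4% higher.

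Genes of mature oligodendrocytes and myelin were more often lower than higher in Iso. Of 37 listed genes 30 were measured, 15 were lower, 3 higher and 12 not called, with a median of -0.18. Under the poly-A covariate 6 were lower and 1 higher. The summed signal of 31 members, 1 below the filter among them, was in Iso P80 0.923 of that in Soc P80, without overlap of the arrays. In such bulk tissue fewer oligodendrocytes and less RNA per cell cannot be told apart. Apod, a lipid-binding protein secreted by oligodendrocytes, lay between 8.85 and 9.02 in Soc P80 and between 8.02 and 8.74 in Iso P80, and fell by 0.72 (adjusted p = 1.57e-09). Gsn, the actin-severing protein gelsolin, lay between 9.01 and 9.14 in Soc and between 8.52 and 8.60 in Iso, and fell by 0.52 (adjusted p = 1.32e-13). Mal, a proteolipid of compact myelin, fell by 0.40. Plekhb1 fell by 0.49 and the receptor Gpr37 by 0.38. None of these overlapped between the groups. Of the defining markers Mag, an adhesion protein of the inner myelin layer, fell by 0.37 and Mog, at the myelin surface, by 0.21, but Mbp, a major structural protein of myelin, was at 11.65 ± 0.16 and 11.69 ± 0.14 and was not called. In Soc P80 array 6 stood apart for this probe set, at 11.96 with the next array at 11.65. Another Mbp probe set rose by 0.31 (adjusted p = 1.14e-06). So did a probe set of Mobp, another myelin protein, by 0.35 (adjusted p = 3.51e-07), while the Mobp probe set of highest signal was not called (-0.09), both values being chosen after they were seen. The members that rose were Evi2a (0.37), the transcription factor Myrf (0.28) and the tight junction protein Cldn11 (0.12). Leaving out any 1 array gave 14 to 17 lower members and the Gapdh covariate 14, and the 6 lower members that the poly-A covariate left were Gsn, Mal, Plekhb1, Gpr37, Mag and Apod.

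Microglial genes were called in both directions, at shares near those of all genes. Of 33 listed genes 16 were measured, with a median of 0.097. Of these 5 were higher (31.2%, against 24.4% of all genes) and 3 lower (18.8%, against 25.1%). With the poly-A covariate 2 were higher and 3 lower. Fcer1g, the signalling chain of Fc receptors, rose from 8.09 ± 0.073 to 8.73 ± 0.053, by 0.65 (adjusted p = 3.84e-13). Cd48, a receptor of the SLAM family, rose by 0.70 and the lysosomal protease Ctss by 0.36. The surface receptor P2ry12 rose by 0.34. Against these, Aif1, which encodes the common microglial marker Iba1, fell by 0.64 (6.55 to 6.78 in Soc and 5.83 to 6.40 in Iso, without overlap), and the growth factor receptor Csf1r fell by 0.30. The complement genes, chosen after their values were seen, were not called: C1qa (-0.09), C1qb (-0.30) and C1qc (-0.01). The summed signal of 23 members, 7 below the filter among them, was 1.15 times that of Soc, with no overlap. Microglia express several of the interferon-induced genes, and the part of this shift in their rise was not tested.

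Astrocyte genes were more often higher than lower, 11 against 4 of 29 measured, but with the poly-A covariate 2 were higher and 2 lower. S1pr1, a sphingosine phosphate receptor, rose by 0.49 (adjusted p = 1.28e-15) and the water channel Aqp4 by 0.23, although another Aqp4 probe set fell by 0.24. The gap junction protein Gja1 rose by 0.29. Vim, an intermediate filament of immature and reactive astrocytes, fell by 0.65 (7.82 to 8.11 in Soc and 7.22 to 7.43 in Iso), and Clu, a secreted chaperone, by 0.21. Blood was represented by Hbb, a haemoglobin chain, which fell by 0.47 (adjusted p = 6.17e-12). The plasma protein gene Alb was higher by 0.75. At the blood-brain barrier the transporter Slco1c1, which carries thyroid hormone, fell by 0.53 while Slco1a4 rose by 0.34 (its other probe set fell by 0.24). Of 14 choroid plexus and ependyma genes with a probe set, 11 lay below the filter. The markers Folr1, Kcne2, Sostdc1 and Foxj1 lay below it, and Ttr lay near it, at 5.73 in Soc and 5.86 in Iso.

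Genes of the excitatory synapse were lower more often than the background. Of 30 measured postsynaptic scaffold and glutamate receptor genes 14 were lower (46.7%) and 3 higher, with a median of -0.12. Camk2a, the kinase central to synaptic plasticity, lay between 10.29 and 10.47 in Soc P80 and between 9.99 and 10.12 in Iso P80, and fell by 0.30 (adjusted p = 3.98e-09). The auxiliary subunits of AMPA receptors Cnih2 and Cacng2 fell by 0.35 and 0.45, but another Cacng2 probe set, of lower signal, rose by 0.65. Baiap2, an actin regulator of dendritic spines, fell by 0.46. The scaffold gene Shank1 rose by 0.27, from 9.98 ± 0.048 to 10.25 ± 0.078, while another of its probe sets was not called (-0.28). With the poly-A covariate 5 were lower and 1 higher, so most of these calls were lost, and the median difference was -0.083.

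Presynaptic genes were lower in 12 and higher in 6 of 29 measured. The Gapdh covariate gave 9 lower and 11 higher, and the poly-A covariate 7 and 3. Epn1, an endocytic adaptor for clathrin, fell by 0.99, from 7.54 ± 0.11 to 6.55 ± 0.089, and Pacsin1, which bends membrane during vesicle recycling, by 0.95. Sv2a, a synaptic vesicle protein, fell by 0.41 and Slc17a7, the vesicular glutamate transporter, by 0.30. Vamp1, a vesicle fusion protein, rose by 0.32 and the fusion cofactor Napa by 0.24. Camk2n1, an inhibitor of Camk2a, fell by 0.83, although its other probe set rose by 0.21. Epn1 and Camk2n1 went the other way at P60, where Iso was higher by 1.495 and 0.88.

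At inhibitory synapses few genes moved, 1 higher and 3 lower of 14 measured. Gad1, which makes GABA, rose by 0.28 (10.29 to 10.36 in Soc and 10.52 to 10.70 in Iso). Gphn, the scaffold gephyrin, fell by 0.47 and Gabrd, an extrasynaptic receptor subunit, by 0.28. Interneuron markers were higher in 7 and lower in 3 of 15. Vip and Calb2, which mark interneurons that inhibit other interneurons, rose by 0.38 and 0.48, Cnr1, the cannabinoid receptor, by 0.20 and Kcnc2, a channel of fast-spiking cells, by 0.40. Pvalb, which marks fast-spiking cells, fell by 0.38 (adjusted p = 0.00133). Of these Vip, Cnr1, Kcnc2 and Gad1 kept their call with the poly-A covariate, and Calb2 (adjusted p = 0.146) and Pvalb (adjusted p = 0.153) did not.

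Potassium channel genes were lower in 11 and higher in 4 of 27 measured, and those of other channels lower in 8 and higher in 3 of 19. Kcnj6, an inward rectifier opened by G proteins, lay between 8.07 and 8.23 in Soc P80 and between 7.46 and 7.63 in Iso P80, and fell by 0.60 (adjusted p = 8.93e-15). Kcna6 fell by 0.58 and Kcnip3, a calcium-binding channel partner, by 0.55. Scn4b, a sodium channel beta subunit abundant in striatum, rose by 0.74 without overlap (7.73 to 7.99 and 8.51 to 8.68), as did the calcium channel subunit Cacna2d3 (0.51). Striatal markers, a check on the dissection, were 4 higher and 1 lower of 16 measured, and their summed signal was 1.17 times that of Soc with no overlap. Without array 4 of Iso P80 3 were higher and 0 lower. The risen members were Scn4b, Arpp21, a phosphoprotein of dopamine-responsive neurons (0.58), Drd1 (0.27) and Pde1b (0.13). Penk, Ppp1r1b and Rgs9, also on that list and chosen after their values were seen, were not called (0.12, 0.12 and 0.04). The part of the dissection in these values was not tested.

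Among genes of stress hormone signalling 5 of 14 were higher and 1 lower. Hsd11b1, which regenerates active glucocorticoid, rose from 7.85 ± 0.14 to 8.33 ± 0.11, by 0.48 (adjusted p = 1.16e-07), and the glucocorticoid receptor gene Nr3c1 by 0.21. The responsive genes Angptl4, Errfi1 and Klf9 rose by 0.52, 0.39 and 0.16, whereas Fkbp5 (0.09, adjusted p = 0.639), chosen after its value was seen, was not called. With the poly-A covariate Hsd11b1 alone of the 14 was higher, by 0.72. Among neuropeptide genes 7 were higher and 6 lower of 26. Crhbp, which binds and blocks corticotropin-releasing hormone, fell by 0.54, and the granins moved apart, Scg3 up by 0.38 and Scg2, which fell by 0.20. Maob, a monoamine oxidase, rose by 0.43 (9.11 to 9.21 in Soc and 9.52 to 9.65 in Iso).

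Housekeeping machinery showed changes that differed by subunit. Of 35 measured genes of respiratory complexes II to V 18 were higher (51.4%) and 10 lower (28.6%), while complex I was near the background (10 and 11 of 34). For complexes II to V the Gapdh covariate gave 21 higher and 4 lower and the poly-A covariate 8 and 2. Leaving out 1 array gave 12 to 18 higher, with 12 without array 5 of Iso P80. Uqcrh, a small subunit of complex III, rose by 0.68 (10.46 to 10.55 in Soc and 11.01 to 11.36 in Iso), but Uqcrc1, a core subunit of the same complex, fell by 0.44. Within complex I Ndufb5 rose by 0.54 and Ndufb7 fell by 0.47. Proteasome and ubiquitin genes were lower in 17 and higher in 8 of 36. The base ATPases Psmc1 and Psmc3 fell by 0.43 and 0.41, and the lid and core subunits Psmd11 and Psma6 rose by 0.59 and 0.37. The other Psmd11 probe set was not called (0.05). The direction did not follow the part of the proteasome. Psmc6, also a base ATPase, rose by 0.32 and Psmd7, also of the lid, fell by 0.205, both chosen after their values were seen. Among microtubule motors Dync1h1, the dynein heavy chain, fell by 0.68 (9.62 to 9.75 in Soc and 8.94 to 9.05 in Iso) and Kif5c, a kinesin, by 0.72. Apart from Psmc6 and Psmd7, for which overlap is not given, the groups did not overlap for any gene named in this paragraph, in its probe set of highest signal. The remaining lists, cytosolic ribosomal proteins (12 higher and 9 lower of 39), splicing factors (22 and 14 of 55), cytoskeleton (11 and 10 of 42), sterol synthesis (10 and 5 of 27) and clock genes (4 and 2 of 14) among them, are in the plot of shares by list.

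Beyond the lists, the 15 largest falls and 15 largest rises were named by size. Akap8l, a nuclear anchoring protein related to those for protein kinase A, fell most, by 1.40 (7.66 to 8.02 in Soc P80 and 6.35 to 6.74 in Iso P80, adjusted p = 4.62e-15), and its other probe set fell by 0.60. Fbxw7, the substrate adaptor of a ubiquitin ligase, fell by 1.26 and by 1.19 in the other probe set. Ptov1 fell by 1.22, Zcchc17 by 1.05, the retinoid receptor Rxrb by 1.001 and the forkhead factor Foxj2 by 0.97. Pabpn1, the nuclear poly(A)-binding protein, fell by 0.99, and of its other probe sets 1 fell by 1.03 and 1 was not called (0.12). Snhg11, a long noncoding RNA of neurons, fell by 0.96, and its other 3 probe sets fell too. Ntm, the adhesion protein neurotrimin, fell by 0.90, but its other probe set was not called (0.08). R3hdm2 fell by 0.94, the cadherin Cdh22 by 0.93 (arrays overlapping) and the motor Myo5a by 0.87. Fos, Epn1 and Pacsin1 complete the set.

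Of the largest rises Isg15, Irf7, Irf9, Lgals3bp, Rsad2 and RT1-T24-3 belong to the interferon and class I lists. Coa5, an assembly factor of cytochrome oxidase, lay between 9.40 and 9.49 in Soc P80 and between 10.16 and 10.41 in Iso P80, a rise of 0.81 (adjusted p = 8.31e-22). Rapgef5, an exchange factor for Rap GTPases, had the smallest p of the named genes, with a rise of 0.78 ± 0.033 (SE; 8.64 to 8.80 in Soc and 9.45 to 9.53 in Iso, adjusted p = 1.1e-23). Mmgt1 (0.83; its other probe set -0.16, not called), Ppp1r26 (0.79), Vwc2 (0.78, arrays overlapping), Inka2 (0.75), Prodh, the first enzyme of proline breakdown (0.73), Scn4b and Alb were the others. In 14 of the 15 rises and 14 of the 15 falls the arrays of the groups did not overlap, against 26.4% of all genes. The genes were chosen by size on these same arrays, so this count and the next are descriptions. With the poly-A covariate 14 rises and 12 falls kept their call, and Vwc2, Zcchc17, R3hdm2 and Cdh22 did not.

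The differences of these genes at P80 were also set against those at the other ages. Because the genes were chosen by their size at P80, which enters this contrast too, the next counts are descriptions. All 15 rises were above the mean difference of P30, P40 and P60, and 14 falls were below it, the exception being Fos. Over all genes 47.3% passed this test in either direction. Of the 5484 probe sets that passed it (45.1%), 2741 lay above the mean of the other ages and 2743 below, and 61.2% lay above when each array was centred on its median. Besides Irf7, Ifi27 and Arc, the smallest p belonged to Rapgef5, Coa5, Rap1gap2, Ntm, Dync1h1, Id2 and Arpp21. Rap1gap2, which switches Rap GTPases off, rose by 0.65 at P80 and Id2, an inhibitor of helix-loop-helix factors, by 0.66. At P60 the same genes were lower in Iso, by a difference of -0.27 and -0.32. At P60, P40 and P30, 53.1%, 28.3% and 19.9% of probe sets were called. Across all probe sets, 3540 were called at both P80 and P60 and 2934 of them in opposite directions. At P80 and P40 both, 1866 were called, 1409 in the same direction, and at P80 and P30 both 1380, with 991 in the same direction. The poly-A ratio had the opposite order at P60 and P80 and the same order at P40 and P80, as given above. At P30 the ratio was 3.71 in Iso and 3.57 in Soc. With the ratio as a covariate the probe sets whose P80 and P60 differences differed went from 7244 (59.6%) to 1927. The ratio did not overlap between the groups at P80, so a call lost with it need not mean a smaller difference. The part of the ratio in these directions was not tested.

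**Figure D5:**
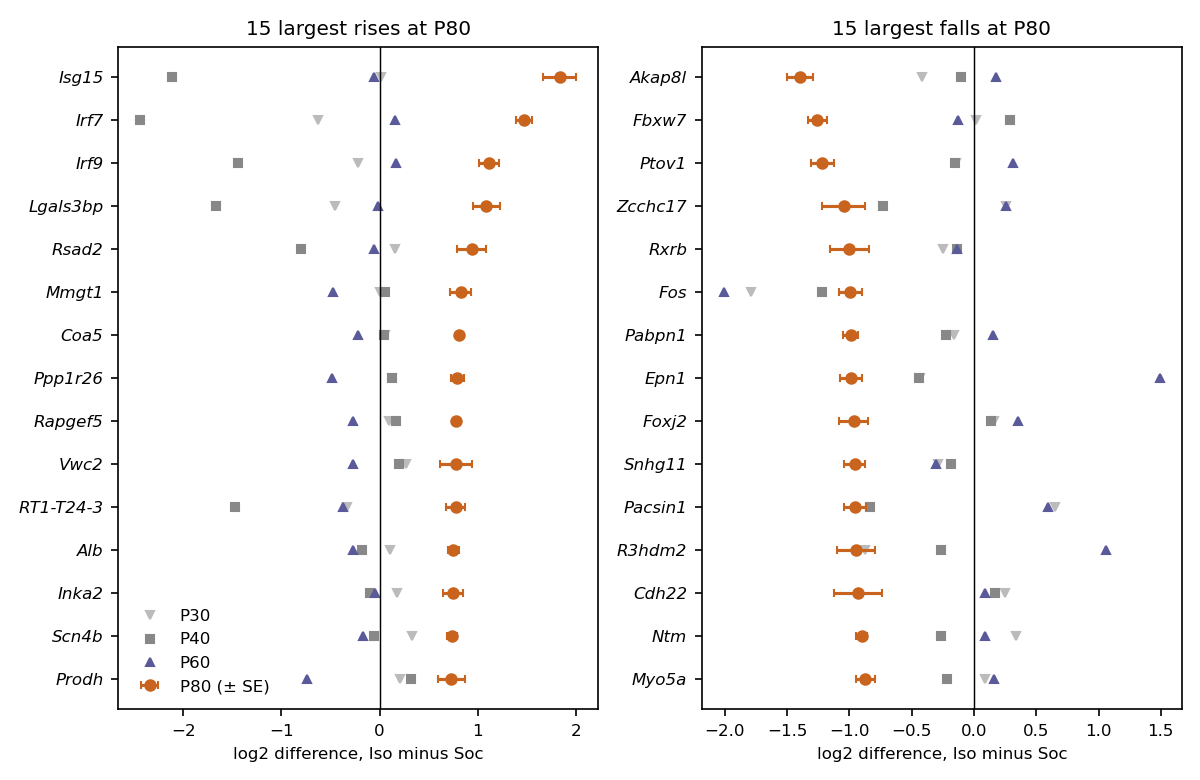
Log2 difference (Iso minus Soc) of the 15 genes with the largest rises (left) and falls (right) at P80, with the P80 value and its standard error in orange and the differences at P30, P40 and P60 as grey and violet symbols. Isg15 was higher by 1.84 at P80 and lower at P40 (-2.12), Fos was lower at every age, and Epn1 was lower by 0.99 at P80 but higher by 1.495 at P60.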

How the data were processed

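RNA of the medial prefrontal cortex had been hybridised to 1-colour Affymetrix arrays. The values used are log2 signals of the authors' deposited table of 20304 probe sets; the submitters' processing notes name MAS5, with no version given in the sources used here. The authors' deposited numbers of probe sets passing each filtering criterion show that the table had been limited by presence calls, and they entered no test. No counts or depth exist for arrays, so the number of arrays limits the precision.

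After removal of 55 control probe sets, the 12149 of 20249 with a mean log2 signal at or above the 40th percentile (5.72) were kept. Probe sets were named through the platform annotation (14607 with 1 symbol, 326 with several, 5316 with none, and none named from several), of which 14567 matched the RefSeq gene table. One model with 8 group means was fitted in limma 3.58.1 (R 4.3.3; lmFit, eBayes with trend, 38 residual degrees of freedom), two-sided, with Benjamini-Hochberg adjustment. Arrays 3 and 4 of Iso P30 differed by less than any other pair of 1 group (0.2995 as root mean square log2, against at least 0.4126) and were averaged, leaving 46 samples. Quality measures were compared by exact permutation tests. In simulated data for this comparison (12149 probe sets, 200 changed) the fit recovered 61.2% of 1.2-fold, 92.5% of 1.5-fold and 100% of 2-fold changes, with 7 false among 176 calls. The simulated noise was independent between probe sets, without an array-wide shift in quality, and far fewer probe sets changed than were called in the data. These rates check the fit and do not give the error rate of the calls reported here.

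Named genes were the 15 largest rises and falls, the 5 of smallest p among called members of each of 37 gene lists, and the 10 of smallest p in the contrast with the other ages; genes outside this rule are given as whole sets of called or measured members, as markers of a cell type, or as chosen after their values were seen. The comparison, the members and the lists were chosen with earlier results of these data known. Alternatives covered the filter, normalization, constant added before the log, variance prior, samples in the fit, quality covariates, the replicate number as a block and each P80 array left out; the poly-A ratio as a covariate was added after seeing the data.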

Additional observations from a re-analysis of the deposited data

Results flagged for a closer look

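Values that stood apart within their group of 6 were sought by Dixon's test at its usual critical value for 141 genes and 12 quality measures, and 31 of 306 groups were flagged, where chance flags about 1 in 20. The first set of hybridisation spike-ins of array 4 of Iso P80 averaged 5.49 on the log2 scale, with the next array at 8.22. The second set of that array averaged 8.90 and did not stand apart. In Soc P80 array 6 stood apart as the highest for B2m (10.27), Gabrd (8.22), Mbp (11.96), Mobp (11.50) and Psma6 (9.98), and array 2 for Mog (8.06). Array 6 also differed most from the rest of Soc P80. Its root mean square log2 distances were 0.476 to 0.505, against 0.433 to 0.466 between the others. The lowest Soc array stood apart for Calb2 (6.81), Fkbp5 (5.63), Klf10 (7.31), Parp14 (5.32), Ptgs2 (7.23) and Pvalb (7.03). In Iso P80 the highest array stood apart for Apod (8.74), Coa5 (10.41), Id2 (9.94), Irgm (6.12), Junb (6.08), Mog (7.98), Napa (10.14), P2ry12 (8.23), Pde1b (8.62) and Vim (7.43). The lowest Iso array stood apart for Egr2 (6.48), Klf9 (9.91), Mmgt1 (8.48), Ndufb7 (8.39), Ppp1r26 (7.70), Psmc1 (8.50), Pvalb (6.71) and Scn4b (8.51).

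The rearing difference at P80 departed from that at the other ages in 5484 probe sets against the mean of P30, P40 and P60 and in 7244 against P60 alone (limma, adjusted p under 0.05). Among the genes of smallest p, the P80 difference stood above the mean of the other ages by 2.44 for Irf7, 0.97 for Arc, 0.91 for Ifi27, 0.85 for Coa5, 0.79 for Rapgef5, 0.77 for Id2, 0.75 for Rap1gap2 and 0.72 for Arpp21. It stood below that mean for Ntm (-0.95) and Dync1h1 (-0.63).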

How the results depend on the processing

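Apart from the poly-A covariate, the settings tried moved the 5796 probe sets called at P80 to between 4226 (Gapdh ratio as a covariate) and 6434 (no filter), and leaving out 1 array gave 5482 to 5611. With the poly-A ratio as a covariate the counts were 2227 for P80, 2000 for the contrast with the mean of the other ages (5484 without it) and 1927 for the contrast with P60 (7244 without it); the cause was not tested. Leaving out 1 array gave 5252 to 5392 and 7067 to 7203 for those contrasts. The numbers in the titles did not pair the samples: same-numbered arrays correlated between -0.087 and 0.057 over 6 pairs, and 1 Soc array correlated best with its own number. With the replicate number as a block 5789, 5485 and 7248 probe sets were called. For the 192 named genes, 4324 values under settings other than that covariate kept direction and call, 69 lost the call and 0 reversed; with the poly-A covariate 142 kept and 50 lost it. Under the filter at the 60th percentile 2 interferon-induced genes were measured, both called higher. The lower actin ratio in Iso (difference -0.6906, exact permutation p = 0.0303) lay between -0.823 and -0.5606 without 1 array and lost its call in 5 of these (exact permutation p = 0.06061 in each); the difference in trimmed mean signal (0.6123, exact permutation p = 0.05628) lay between 0.4532 and 0.7429 and passed in 4. Centring each array on its median moved the share of calls above from 51.2% to 61.2% in the contrast with P60. Most interferon-induced genes lay near the filter in Soc P80, where the arrays limit what can be measured.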
